A study of Mus musculus with 6 samples.

Results

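The genes described are 10 that code for proteins of the Z-disc, namely *Actn2*, *Actn3*, *Ldb3*, *Myoz1*, *Myoz2*, *Myoz3*, *Myot*, *Tcap*, *Csrp3* and *Synpo2l*. They were taken by name as a class of protein, by no expression cutoff, but with earlier results of these data known. Of them, 9 are among the 23231 genes with a count in any of 6 RNA-Seq libraries of C2C12. C2C12 cells are mouse myoblasts grown as a line, which form myotubes in low serum. Of the libraries, 3 (dCas9-KRAB) came from cells carrying a nuclease-dead Cas9 fused to the KRAB repressor domain and no enhancer sgRNA, and the other 3 (dCas9-KRAB-En5) from cells carrying the same repressor with sgRNAs against Myog-En5, an enhancer of the myogenic regulator *Myog*. Both groups were infected with lentivirus (multiplicity of infection 100), kept under puromycin as a stable population and collected on day 5 of differentiation in horse serum. Untransduced cells were not analysed here, so every comparison is between cells that all carried the repressor.

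The Z-disc is the plate of protein that bounds each sarcomere, where actin filaments of neighbouring sarcomeres are anchored and crosslinked. α-Actinins form the crosslinks, and a ring of adaptor proteins binds the α-actinins and ties them to titin, to filamin and to signalling proteins such as the phosphatase calcineurin. In skeletal muscle these genes are switched on late, as myoblasts stop dividing and assemble sarcomeres.

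Of the 10 genes, all but *Myot* were listed, 8 passed the filter on low counts and were tested, and 7 were called lower in dCas9-KRAB-En5 cells. None was called higher. A gene was called where edgeR's quasi-likelihood test gave an adjusted p no larger than 0.01 and a log2 fold change of size 1 or more. Of the 14378 genes tested across the genome, 4.67% were called lower and 1.52% higher. Of the 10 genes, 7 were also called lower in a model with the replicate block (6.79% of all genes tested) and by DESeq2 (8.66%). *Myoz1* was the tested gene that was not called. In TPM (counts per gene length, scaled to 1000000 per library), 8 of the 10 had all 3 dCas9-KRAB-En5 libraries below all 3 dCas9-KRAB libraries, as did 19.7% of the genes tested. The median log2 fold change of the 8 tested genes was -7.66, against 0.08 over all genes tested. All of them but *Actn3* and *Myoz1* had fewer than 10 counts in at least 1 dCas9-KRAB-En5 library and passed the filter through their dCas9-KRAB libraries, so this median is a description only. These are levels in whole cultures, in which fewer cells of a type and less RNA per cell cannot be told apart. The labels do not say that replicates were separate cultures, so p-values measure the spread between these libraries, which may be technical.

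**Figure D1:**
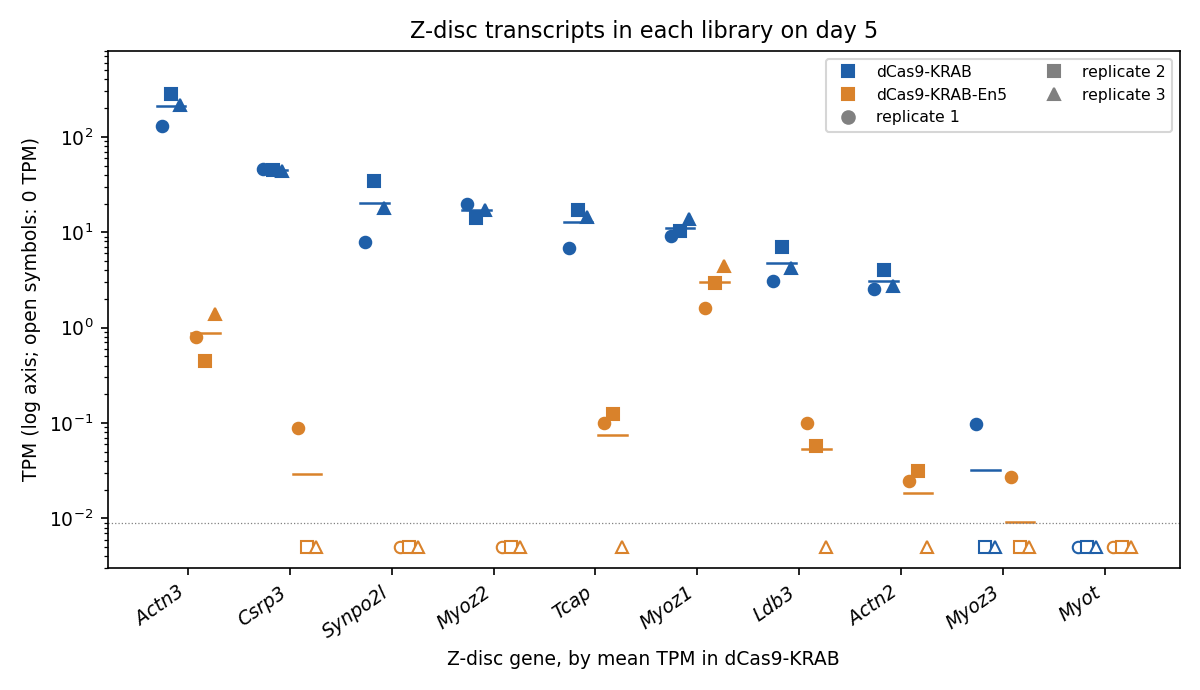
TPM of the 10 Z-disc genes (log axis) in the 3 dCas9-KRAB and 3 dCas9-KRAB-En5 libraries, with one symbol per library and a line at each group mean above 0; open symbols at the bottom stand for 0 TPM. *Actn3* was highest among dCas9-KRAB libraries at 129 to 281 TPM, and *Myoz1* was highest among dCas9-KRAB-En5 libraries at 1.60 to 4.43 TPM.

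The libraries held 40554323 to 73988425 counts in dCas9-KRAB and 31831093 to 40384720 in dCas9-KRAB-En5. A floor of 3 counts corresponds to 0.0405 to 0.0942 CPM over all 6 libraries, that is counts scaled to 1000000 per library (this covers counting error only). In dCas9-KRAB-En5 it corresponds to 0.0743 to 0.0942 CPM. The bounds given below use counts scaled by effective library size, where the floor is 0.0644 to 0.129 CPM in dCas9-KRAB-En5. Fewer genes were listed in dCas9-KRAB-En5 replicate 3 (13991, against 17084 to 19395 in the others), and its ribosomal protein genes held 25.9% of counts against 10.8% to 19.4%. *Myog* had 43211, 68488 and 74845 counts in dCas9-KRAB and 12, 0 and 0 in dCas9-KRAB-En5, in the direction the labels imply. All 9 genes of a muscle marker list were called lower, and the list summed to 4171 to 9516 TPM in dCas9-KRAB and 9.11 to 16.1 TPM in dCas9-KRAB-En5. Macrophage markers, which a myoblast line should lack, were present in both groups: 12 of 18 were at 1 TPM or more in every library, the list summed to 6729 to 8768 TPM in dCas9-KRAB and 13656 to 21658 TPM in dCas9-KRAB-En5, 1 of 15 tested was called higher (*Adgre1*) and none lower by edgeR, while *Mrc1* was at 0 throughout and *C1qa* at 0 in dCas9-KRAB-En5. Of the 18 macrophage genes, 3 had all dCas9-KRAB-En5 libraries above all dCas9-KRAB libraries and 4 had them below. Of all genes tested, 19.7% lay below and the share above is not given here, so these counts are a description only. Among the 3 was *Lyz2*, with 1896 to 4815 TPM in dCas9-KRAB and 6938 to 13210 TPM in dCas9-KRAB-En5. The 4 include *C1qc*, which was not tested and had 11, 7 and 4 counts in dCas9-KRAB and 0, 1 and 0 in dCas9-KRAB-En5. One of those 4, *Fcgr1*, had 97.3 to 161 TPM and 27.9 to 53.6 TPM (log2 fold change -1.84, edgeR adjusted p = 0.0178), and DESeq2 called it lower (-1.87, adjusted p = 0.000868). DESeq2 called 2 macrophage markers higher, *Adgre1* and *Itgam*. The replicate block also called these 2 higher, and none lower. *Itgam*, whose groups overlapped in TPM, had 2.75 in edgeR (adjusted p = 0.0151), 2.66 in DESeq2 (adjusted p = 0.000324) and 2.39 under the block (adjusted p = 0.00499). Smooth muscle and mesenchymal markers summed to 207 to 390 TPM against 15.01 to 28.7 TPM, with 1 of 5 tested called lower. The called gene, *Acta2*, made up most of the dCas9-KRAB sum, with 160 to 339 TPM there and 0.806 to 8.79 TPM in dCas9-KRAB-En5. Of the 5 tested, 4 had a negative log2 fold change, and *Pdgfra* had one of 0.53 (edgeR adjusted p = 0.767). The sum therefore mostly follows a single gene. *Smtn* was lower too, at 7.21 to 21.7 TPM in dCas9-KRAB and 2.02 to 5.04 TPM in dCas9-KRAB-En5. Its log2 fold change of -2.17 was not called by edgeR (adjusted p = 0.0117). It was called lower by DESeq2 (-2.22, adjusted p = 0.000354) and under the replicate block (-2.09, adjusted p = 0.00776). The part of these differences in the Z-disc results was not tested.

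The α-actinins are antiparallel dimers that crosslink actin filaments at the Z-disc. *Actn3* codes for the isoform of fast fibres (chr19:4861216-4877909, minus strand, GRCm38). In order of replicate number, 10151, 30520 and 28205 counts fell on it in dCas9-KRAB, and 49, 22 and 93 in dCas9-KRAB-En5. Its level was 209 TPM ± 76.4 (SD, n = 3) in dCas9-KRAB, the highest of the 10 genes, and 0.882 TPM ± 0.482 (SD, n = 3) in dCas9-KRAB-En5. The groups did not overlap, and the lowest dCas9-KRAB library was still 129 TPM against 1.40 TPM in the highest dCas9-KRAB-En5 library. The log2 fold change was -7.65 (SE 0.89, edgeR adjusted p = 0.000239).

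*Actn2*, the α-actinin of cardiac and slower skeletal fibres (chr13:12269426-12340760, minus strand), was expressed at a far lower level. It had 262, 573 and 462 counts in dCas9-KRAB and 2, 2 and 0 counts in dCas9-KRAB-En5. The levels were 2.54, 4.03 and 2.72 TPM in dCas9-KRAB and at most 0.0311 TPM in dCas9-KRAB-En5, so the groups were apart in every library. edgeR gave a log2 fold change of -7.61 (SE 0.83, adjusted p = 0.00016). With so few counts on the lower side, the pooled counts gave 205-fold lower with a 95% exact counting interval of 80.0 to 755.

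Among the 4 α-actinin genes, *Actn3* made up 86.2%, 82.6% and 86.8% of the family's summed TPM in dCas9-KRAB and 1.44%, 0.435% and 6.10% in dCas9-KRAB-En5. *Actn4*, a non-muscle α-actinin, made up 10.2% to 13.4% and 82.3% to 92.6%. The shares did not overlap for either gene, and the two-sided exact permutation p of each was 0.1, the smallest that 3 against 3 libraries can give. The family summed to 150 to 340 TPM in dCas9-KRAB and 23.0 to 103 TPM in dCas9-KRAB-En5. Neither non-muscle gene was called: *Actn4* had a log2 fold change of 0.59 (edgeR adjusted p = 0.439), and *Actn1* one of -0.34 (edgeR adjusted p = 0.666) that turned to 0.18 without dCas9-KRAB replicate 2.

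*Ldb3* codes for a PDZ and LIM domain protein, also called ZASP or Cypher, that binds α-actinin (chr14:34526603-34588682, minus strand). Its counts were 513, 1616 and 1159 in dCas9-KRAB and 13, 6 and 0 in dCas9-KRAB-En5. The level was 4.80 TPM ± 2.05 (SD, n = 3) in dCas9-KRAB and 0.101 TPM or less in each dCas9-KRAB-En5 library. The groups did not overlap, and the log2 fold change was -6.83 (SE 0.86, edgeR adjusted p = 0.000409). Of the 5 PDZ-LIM genes summed, *Ldb3* was a minor one, at 2.82% to 4.41% of TPM in dCas9-KRAB. *Pdlim3*, which codes for another α-actinin binder, held 21.1% to 28.4% there and at most 0.0766% in dCas9-KRAB-En5. *Pdlim7* held the largest share in both groups, 54.7% to 61.6% in dCas9-KRAB and 71.2% to 94.4% in dCas9-KRAB-En5. Its own level was lower in dCas9-KRAB-En5, at 13.4 to 19.7 TPM against 60.1 to 94.6 TPM. The 5 genes summed to 110 to 161 TPM in dCas9-KRAB and 14.2 to 26.1 TPM in dCas9-KRAB-En5.

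The myozenins, or calsarcins, bind α-actinin, filamin and calcineurin at the Z-disc, and their 3 genes gave 3 different pictures. *Myoz2*, the form of heart and slow fibres (chr3:123006206-123035015, minus strand), had 1841, 1817 and 2623 counts in dCas9-KRAB and none in any dCas9-KRAB-En5 library. Its dCas9-KRAB levels of 19.8, 14.2 and 17.1 TPM lay close together. Against a floor of 3 counts in each dCas9-KRAB-En5 library, *Myoz2* was at least 415-fold lower (edgeR adjusted p = 2.88e-05), and the fitted log2 fold change of -13.79 is not a measured fold. A microRNA gene, *Gm22066*, lies within *Myoz2* on the same strand with no exonic base shared and 0 counts.

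*Myoz1*, the form of fast fibres (chr14:20649107-20656540, minus strand), had the smallest fold change of the 8 tested genes. It had 474, 737 and 1156 counts in dCas9-KRAB and 64, 95 and 192 in dCas9-KRAB-En5. The corresponding levels were 9.23, 10.4 and 13.6 TPM against 1.60, 2.96 and 4.43 TPM, so the groups did not overlap and dCas9-KRAB-En5 was the lower. The log2 fold change of -1.73 (SE 0.67) did not pass the test, with an edgeR adjusted p of 0.0944. DESeq2 gave -1.71 with an adjusted p of 0.0509, and edgeR with the replicate number as a block gave -2.12 with an adjusted p of 0.0112, neither past the cutoff. Without dCas9-KRAB-En5 replicate 3, which had the most *Myoz1* and the fewest genes listed, the log2 fold change was -2.95 and the adjusted p 0.00126 in edgeR, past both cutoffs. The part of that library's composition in this result was not tested.

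*Myoz3*, a further fast-fibre form, had 9 counts in dCas9-KRAB replicate 1, 2 counts in dCas9-KRAB-En5 replicate 1 and none elsewhere. It did not pass the filter on low counts and was not tested, and at this depth a difference was not detectable. *Myot* codes for myotilin, which binds α-actinin and filamin and bundles actin, and it was not listed in any of the 6 libraries. Both genes lie on chromosome 18.

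With *Myoz2* at 0, the myozenin transcripts left in dCas9-KRAB-En5 cells were nearly all *Myoz1*. It made up 31.7%, 42.3% and 44.4% of the family's TPM in dCas9-KRAB and 98.3%, 100% and 100% in dCas9-KRAB-En5, while the family summed to 24.6 to 30.8 TPM and 1.62 to 4.43 TPM. Of the summed TPM of all 10 genes, *Myoz1* made up 2.52% to 4.11% in dCas9-KRAB and 58.4% to 81.8% in dCas9-KRAB-En5. *Actn3* made up 57.3% to 68.1% and 12.3% to 29.2%. The ratio of *Myoz1* to *Actn3* in TPM was 0.0716, 0.0370 and 0.0628 in dCas9-KRAB and 2.00, 6.62 and 3.17 in dCas9-KRAB-En5. This ratio is taken within a library and so does not depend on library scaling, and its groups did not overlap (two-sided exact permutation p = 0.1, the smallest possible). It restates the unequal fold changes of the pair given above, and does not show that *Myoz1* stayed the same.

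**Figure D2:**
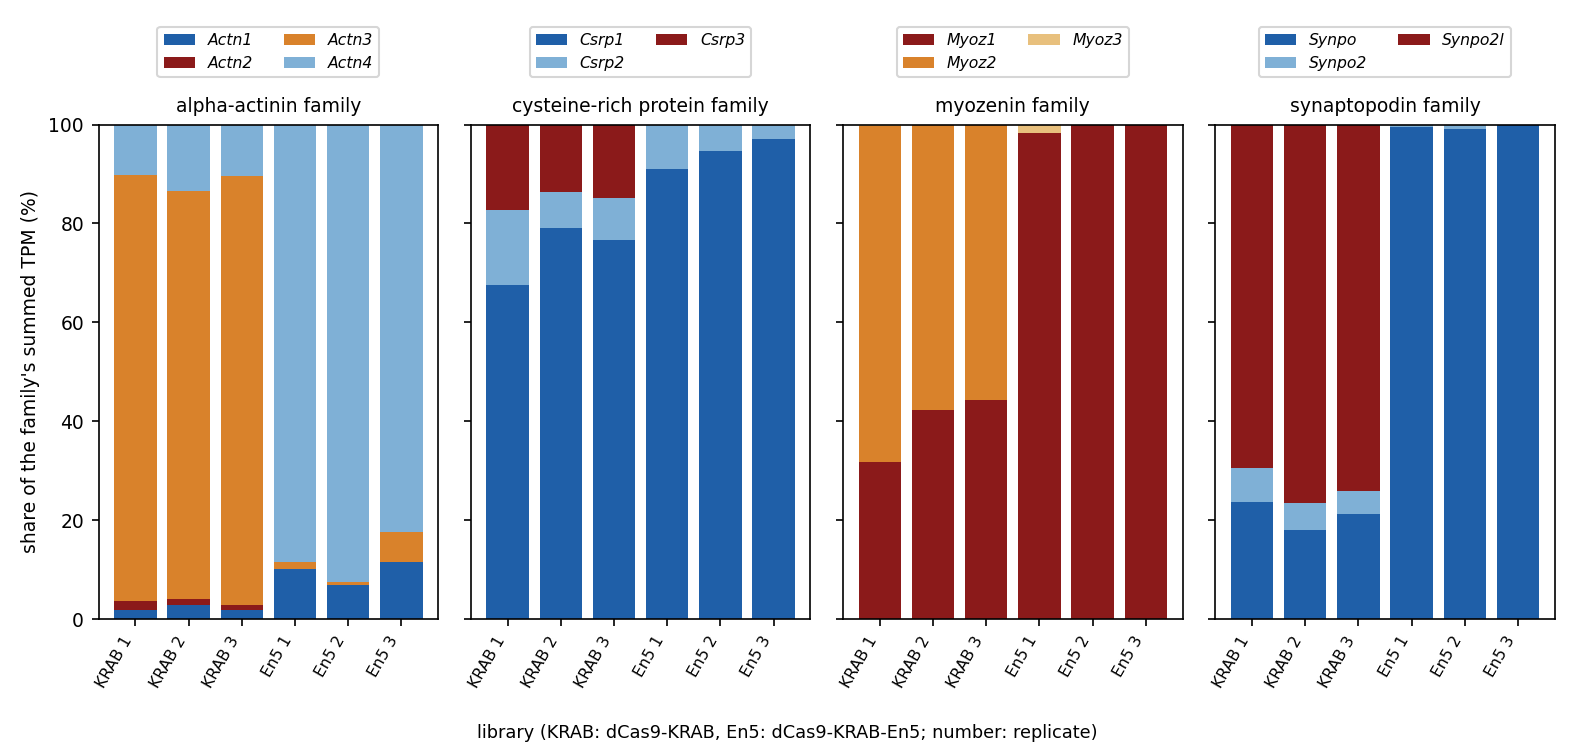
Share of each gene in the summed TPM of its family (%, stacked bars) in each of the 6 libraries, for the α-actinin, cysteine-rich protein, myozenin and synaptopodin families; reds and oranges are the Z-disc genes described and blues their relatives. In dCas9-KRAB-En5 libraries *Actn4* held 82.3% to 92.6% of the α-actinin sum and *Myoz1* at least 98.3% of the myozenin sum.

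*Tcap* codes for telethonin, which caps the end of titin that is embedded in the Z-disc (chr11:98383811-98384953, plus strand). It had 178, 600 and 619 counts in dCas9-KRAB and 2, 2 and 0 in dCas9-KRAB-En5. The levels were 6.92, 16.9 and 14.6 TPM against at most 0.124 TPM, with no overlap. edgeR gave a log2 fold change of -7.66 (SE 0.87, adjusted p = 0.000216), and the pooled counts gave 221-fold lower (95% exact counting interval 86.2 to 813).

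*Csrp3* codes for muscle LIM protein, which is found at the Z-disc and in the nucleus (chr7:48830398-48848033, minus strand). It was the steadiest of the genes, with 46.3, 44.8 and 44.3 TPM in dCas9-KRAB, a coefficient of variation of 2.39%. Its counts were 3359, 4474 and 5297 in dCas9-KRAB and 5, 0 and 0 in dCas9-KRAB-En5, where a single library held all the remaining reads. The log2 fold change was -10.69 (SE 0.91, edgeR adjusted p = 2.95e-05), and the pooled counts gave 1663-fold lower with a 95% exact counting interval of 713 to 5123. Its relative *Csrp1*, which non-muscle cells also express, stayed the largest part of the cysteine-rich protein family, with 67.6% to 79.1% of TPM in dCas9-KRAB and 91.1% to 97.1% in dCas9-KRAB-En5.

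*Synpo2l*, which codes for an actin-bundling PDZ protein of striated muscle also called CHAP, had 997, 5921 and 3735 counts in dCas9-KRAB and none in dCas9-KRAB-En5. Its dCas9-KRAB levels of 7.94, 34.2 and 18.0 TPM were the most scattered of the 8 tested genes, with the highest library 4.31-fold above the lowest. Even so, against 3 counts in each dCas9-KRAB-En5 library it was at least 628-fold lower (edgeR adjusted p = 5.74e-05; the fitted log2 value of -14.39 is not a measured fold). *Synpo2l* (chr14:20658946-20668354) and *Myoz1* are neighbours on chromosome 14, both on the minus strand, with 2405 bases and no annotated gene between them. In dCas9-KRAB-En5 cells the first was not counted at all, and the second kept 64 to 192 counts. With *Synpo2l* at 0, *Synpo* made up at least 99.2% of the synaptopodin family's TPM in dCas9-KRAB-En5 libraries, against 18.1% to 23.6% in dCas9-KRAB.

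The sequences just upstream of transcription starts are shown for called genes because MYOG and MYOD bind E-boxes, short motifs spelled CANNTG. RefSeq promoter windows of GRCm38 were matched for 5 of the 10 genes, and *Actn3*, *Tcap*, *Myoz1*, *Myoz3* and *Myot* had none. Capitals mark each E-box. The stretches lie upstream of the gene's start in both RefSeq and GENCODE and, read 5′ to 3′ on the minus strand, are chr7:48848052-48848301 for *Csrp3*, chr14:20668355-20668604 for *Synpo2l*, chr13:12340761-12340982 for *Actn2*, chr3:123035016-123035237 for *Myoz2* and chr14:34588683-34588931 for *Ldb3*.
Csrp3: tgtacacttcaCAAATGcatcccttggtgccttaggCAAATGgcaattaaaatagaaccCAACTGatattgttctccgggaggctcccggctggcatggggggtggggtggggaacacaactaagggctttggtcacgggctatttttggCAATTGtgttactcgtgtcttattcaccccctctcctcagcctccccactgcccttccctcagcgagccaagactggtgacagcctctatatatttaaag
Synpo2l: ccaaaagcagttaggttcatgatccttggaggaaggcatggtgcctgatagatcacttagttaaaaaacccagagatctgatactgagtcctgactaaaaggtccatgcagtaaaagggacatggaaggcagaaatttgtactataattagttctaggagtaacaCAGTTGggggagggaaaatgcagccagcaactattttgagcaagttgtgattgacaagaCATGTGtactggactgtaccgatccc
Actn2: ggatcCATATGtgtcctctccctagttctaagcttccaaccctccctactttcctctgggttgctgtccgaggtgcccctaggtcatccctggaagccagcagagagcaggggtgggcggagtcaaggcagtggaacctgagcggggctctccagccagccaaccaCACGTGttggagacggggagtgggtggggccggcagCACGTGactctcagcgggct
Myoz2: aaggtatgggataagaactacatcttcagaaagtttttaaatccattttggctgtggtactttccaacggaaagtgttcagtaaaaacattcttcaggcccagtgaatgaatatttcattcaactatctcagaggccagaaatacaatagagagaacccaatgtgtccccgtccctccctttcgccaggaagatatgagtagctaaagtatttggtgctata
Ldb3: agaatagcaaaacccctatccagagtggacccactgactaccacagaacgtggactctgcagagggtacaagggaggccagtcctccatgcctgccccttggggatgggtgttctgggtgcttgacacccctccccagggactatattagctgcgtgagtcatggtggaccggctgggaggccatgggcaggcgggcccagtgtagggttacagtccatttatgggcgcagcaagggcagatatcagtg
The E-boxes in these stretches numbered 4 for *Csrp3*, 2 for *Synpo2l*, 3 for *Actn2*, 0 for *Myoz2* and 0 for *Ldb3*, and all 5 genes were called lower. In the whole 300-base windows, searched on both strands, *Csrp3* had 5, *Actn2* 3, *Synpo2l* 2, *Myoz2* 2 and *Ldb3* 0. An E-box was present in 72.3% of all 32851 windows and 3 or more in 17.6%. The MEF2 motif was found in *Synpo2l* and *Myoz2* and in 3.19% of all windows, the spelling CAGCTG in *Myoz2* and in 16.3%, and the CArG box in *Ldb3* and in 1.63%. These are matches of letters, with no measurement of binding in the data used here, and no match says only that these letters are not in the window.

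In dCas9-KRAB cells the order of levels was *Actn3*, *Csrp3*, *Synpo2l*, *Myoz2*, *Tcap*, *Myoz1*, *Ldb3*, *Actn2*, *Myoz3* and *Myot*, by mean TPM. *Actn3* stood above *Csrp3*, and *Csrp3* above *Synpo2l*, in all 3 libraries with no overlap of their ranges. From *Synpo2l* to *Myoz1* each gene's range overlapped the next, although *Myoz2*, with a lowest library of 14.2 TPM, lay above *Myoz1*, with a highest of 13.6 TPM. *Myoz1* was again clear of *Ldb3*, and *Ldb3* overlapped *Actn2* although it was higher in each of the 3 libraries.

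The libraries did not vary alike for all genes. dCas9-KRAB replicate 2 was the highest of its group for *Actn2*, *Actn3*, *Ldb3*, *Tcap* and *Synpo2l*, but replicate 3 was for *Myoz1* and replicate 1 for *Myoz2* and *Csrp3*. The log2 ratio of replicate 2 to replicate 1 ran from -0.48 for *Myoz2*, whose longest transcript is 39.7% GC, to 1.29 for *Tcap* at 61.3% GC and 2.11 for *Synpo2l* at 56.5% GC. The same ratio was taken over the 13988 tested genes with a GC value and counts in all 3 dCas9-KRAB libraries. Its medians were -0.68, -0.22, 0.16, 0.81 and 1.34 in 5 bins of rising GC content. Spearman's rho between GC content and this ratio was 0.76 over the 8 tested genes and 0.61 over 13988 genes, given as a description, since all points share the same pair of libraries. With an offset for GC content, chosen after seeing the data, 7 of the Z-disc genes were again called lower.

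**Figure D3:**
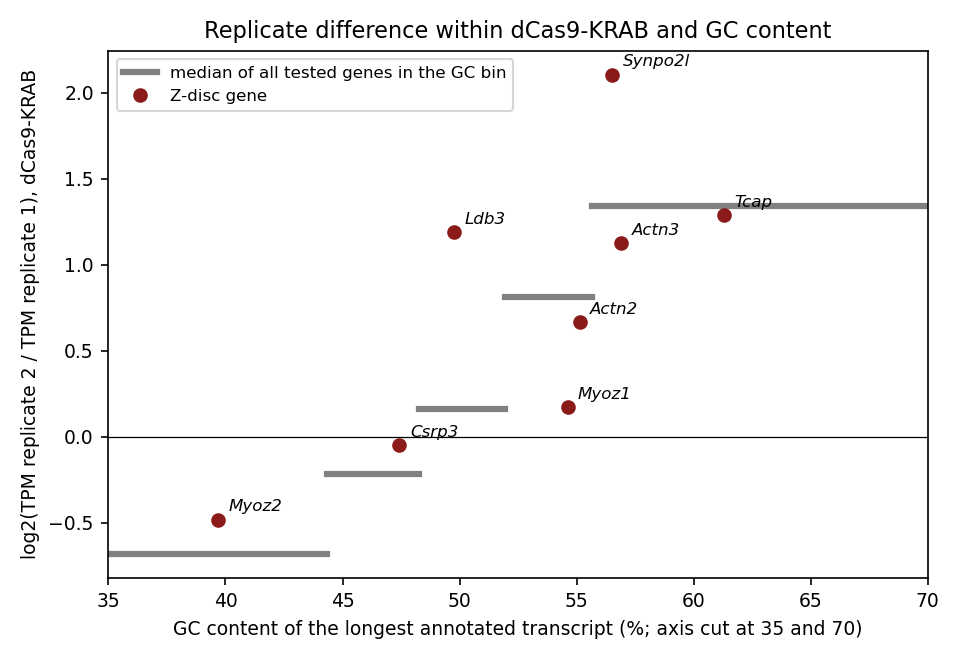
Log2 ratio of TPM in dCas9-KRAB replicate 2 over replicate 1 against the GC content of the longest annotated transcript (%), with 1 point for each of the 8 tested Z-disc genes. Grey bars give the median in 5 GC bins of the 13988 tested genes with a GC value and counts in all 3 dCas9-KRAB libraries. *Myoz2* at 39.7% GC was at -0.48 and *Synpo2l* at 56.5% GC at 2.11, while the bins rose from -0.68 to 1.34.

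The wider Z-disc was examined with a hand-written list of 24 further genes. Of these, 22 were listed and tested, 13 were called lower and none higher, and 9 were not called (edgeR). The median log2 fold change was -5.15, or -4.75 with the 2 genes without a count in dCas9-KRAB-En5 (*Smpx* and *Mypn*) set at their bounds. Without dCas9-KRAB replicate 1, 6 were called lower, and with the replicate block 14, the added gene being *Fhl2* (-2.52 with adjusted p = 0.0168 in edgeR, -2.57 with 0.0056 under the block).

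The called genes with the smallest adjusted p included adaptors, stretch-responsive genes and chaperones. *Ankrd2*, which codes for a stretch-responsive ankyrin repeat protein, had 428, 365 and 425 TPM in dCas9-KRAB and 0.166, 0 and 0 TPM in dCas9-KRAB-En5 (log2 fold change -12.94, edgeR adjusted p = 1.82e-05). *Pdlim3* had a log2 fold change of -12.29 (1.82e-05), *Fhl1*, a four-and-a-half-LIM protein gene, -10.54 (3.95e-05), and *Trim54*, a MuRF-family gene, -9.51 (0.000114), by edgeR with the adjusted p in parentheses. *Cryab*, the gene of the small heat shock protein αB-crystallin, kept 8.69 to 18.7 TPM of its 250 to 576 TPM (-5.11, edgeR adjusted p = 0.000131). *Flnc*, the muscle filamin gene, kept 1.16 to 2.14 TPM of 17.6 to 54.9 TPM (-4.38, edgeR adjusted p = 0.000382).

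Of the 9 genes not called, the 4 with the highest levels were *Capzb*, *Capza1*, *Bag3* and *Capza2*. The actin capping protein genes *Capzb*, *Capza1* and *Capza2*, whose products cap actin filament ends at the Z-disc and elsewhere, had log2 fold changes of 0.45, 0.75 and -0.79 (edgeR adjusted p = 0.531, 0.328 and 0.303). In TPM the groups of *Capzb* did not overlap, at 146 to 148 in dCas9-KRAB and 178 to 262 in dCas9-KRAB-En5, while those of *Capza1* and *Capza2* did. *Bag3*, a co-chaperone gene, had one of 0.87 (edgeR adjusted p = 0.256). The other 5 were at lower levels. Besides *Fhl2*, they included *Nexn*, the gene of the actin-binding protein nexilin, with a log2 fold change of -3.88 (edgeR adjusted p = 0.0434), which DESeq2 called lower (-4.01, adjusted p = 0.00152). *Ankrd23* had -2.66 (edgeR adjusted p = 0.131), and *Pdlim5* and *Lmcd1* each had 0.19 (edgeR adjusted p = 0.845 and 0.876).

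Relatives of the 10 genes that many non-muscle cells express formed a list of 8, all tested, of which 3 were called lower, none higher and 5 not called. Their median log2 fold change was -1.54. *Pdlim1* had 12.0 to 21.7 TPM in dCas9-KRAB and 0.191 to 0.368 TPM in dCas9-KRAB-En5 (-6.16, edgeR adjusted p = 4.79e-05). *Pdlim7* (-2.36, adjusted p = 0.00684) and *Csrp2* (-2.42, adjusted p = 0.00899) were called by smaller margins in edgeR, and they lost the call under 5 and 11 of 17 alternatives. *Csrp1* (-0.75, adjusted p = 0.438), *Synpo* (0.56, adjusted p = 0.434) and *Palld* (-2.32, adjusted p = 0.142) were not called by edgeR, and *Csrp1* passed without dCas9-KRAB-En5 replicate 3 (-2.03, adjusted p = 0.00158).

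**Figure D4:**
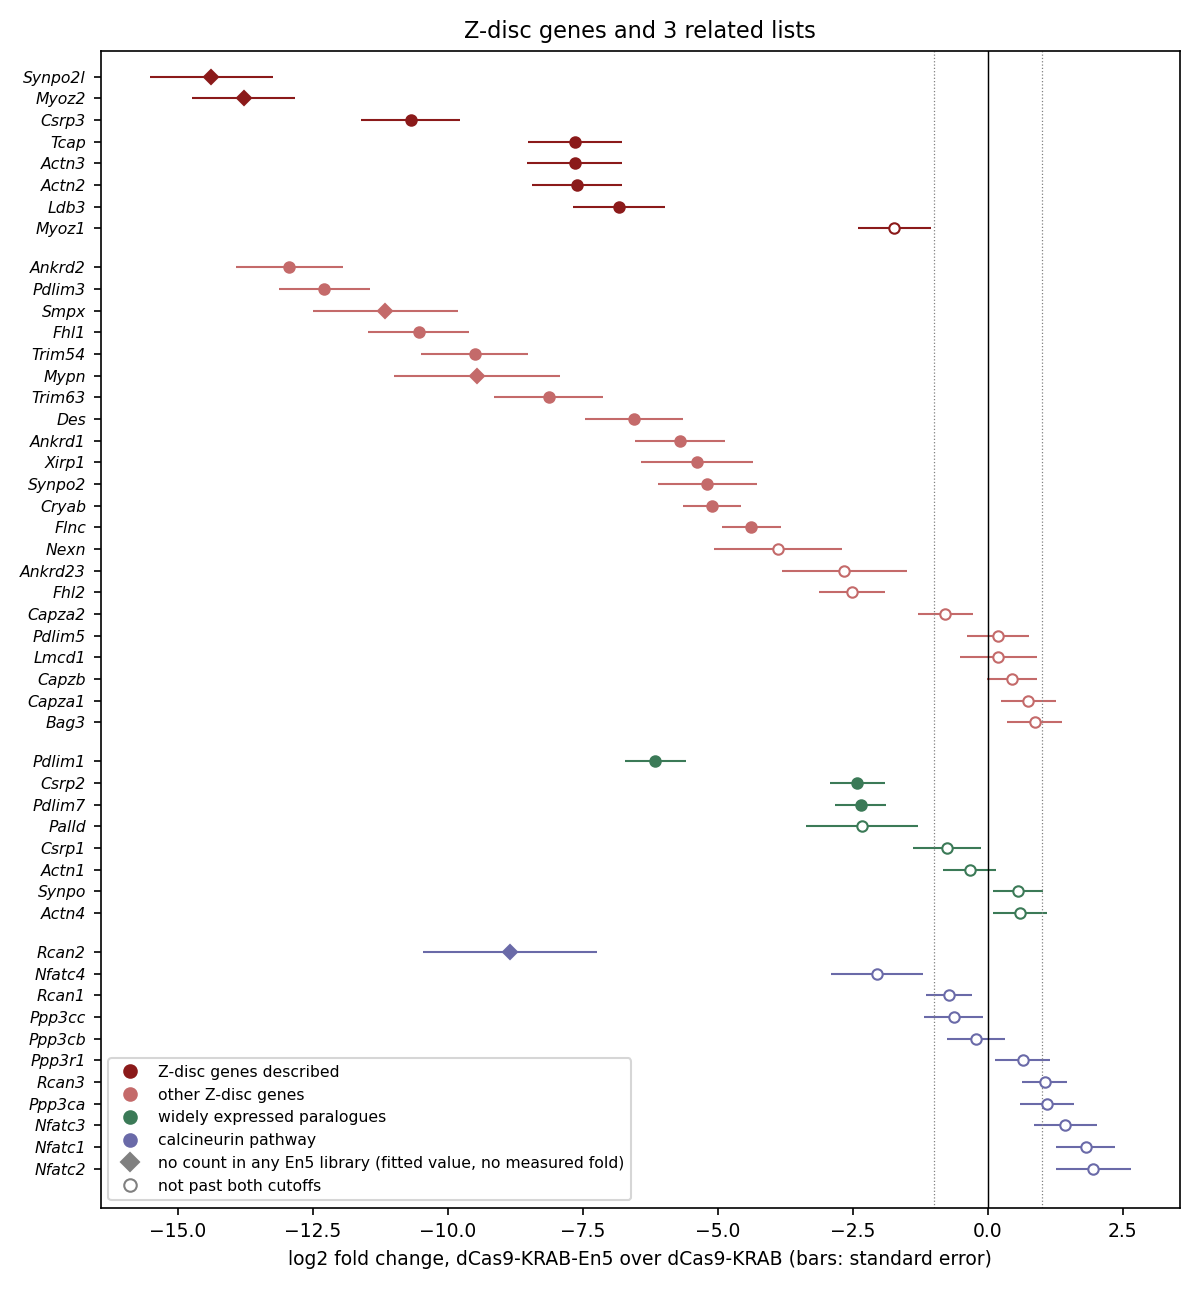
Log2 fold changes of dCas9-KRAB-En5 over dCas9-KRAB from edgeR with standard errors, for the 8 tested Z-disc genes (dark red), 22 other Z-disc genes, 8 widely expressed relatives and 11 calcineurin pathway genes; open symbols did not pass both cutoffs, dotted lines mark -1 and 1, and diamonds are genes with no count in dCas9-KRAB-En5, whose fitted values are not measured folds. The Z-disc genes range from -14.39 to -1.73, and the calcineurin pathway genes have a median of 0.65.

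Calcineurin, the phosphatase that myozenins bind, dephosphorylates NFAT transcription factors, and Rcan proteins regulate it. Of 11 genes of its subunits, NFATs and Rcans, all were tested, 1 was called lower, none higher and 10 were not called, with a median log2 fold change of 0.65. The called gene was *Rcan2*, with 50, 123 and 38 counts in dCas9-KRAB and none in dCas9-KRAB-En5, at least 13.5-fold lower (edgeR adjusted p = 0.00644), and it lost the call under 8 of 16 alternatives. The most abundant genes not called were *Rcan1* (-0.72, adjusted p = 0.256), *Ppp3r1*, a calcineurin regulatory subunit gene (0.65, adjusted p = 0.405), *Nfatc1* (1.81, adjusted p = 0.0433) and *Rcan3* (1.05, adjusted p = 0.0973), all by edgeR. Without dCas9-KRAB-En5 replicate 3, 2 of the 11 were called higher, one of them *Nfatc1* (2.02, adjusted p = 0.00819 in edgeR), and without a filter on low counts 2 were again called higher, *Nfatc1* among them (1.77, adjusted p = 0.00793 in edgeR).

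*Myoz2*, *Csrp3*, *Actn2* and *Ldb3* are also genes of heart muscle, so cardiac markers were read beside them. Of the 10 on the list, *Myl7* was not listed, *Nppa* and *Ryr2* were at 0 in every dCas9-KRAB library and *Myh6* had 5, 1 and 12 counts there. *Nppb* had 17 counts in dCas9-KRAB replicate 1 and none elsewhere. *Nkx2-5*, not tested, had a mean of 0.139 TPM in dCas9-KRAB and 0.298 TPM in dCas9-KRAB-En5, and its groups overlapped. The list summed to 617 to 707 TPM in dCas9-KRAB and 1.55 to 3.22 TPM in dCas9-KRAB-En5. Nearly all of the dCas9-KRAB sum was *Myl4* (576 to 658 TPM) and *Tnnt2* (36.6 to 50.0 TPM). *Tnnt2*, *Myl4* and *Gata4* were called lower of 4 tested (edgeR). *Gata4* had 0.519 to 2.78 TPM in dCas9-KRAB and 0.0755 to 0.0967 TPM in dCas9-KRAB-En5. *Tnni3*, the tested marker that was not called, had 2.29 to 2.69 TPM in dCas9-KRAB and 0.720 to 1.80 TPM in dCas9-KRAB-En5 (-1.19, edgeR adjusted p = 0.18). *Tnnt2* and *Myl4* are also expressed in developing skeletal muscle.

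Little of these transcripts' sequence was shared with other genes. Of the 50-base words in the annotated transcripts of the tested genes, at most 0.0701% (*Actn3*) occurred in transcripts of another gene, and no tested gene overlapped an antisense gene in GENCODE M21.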

How the data were processed

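RNA-Seq of poly(A) RNA from 6 libraries was used, 3 of each group, with groups and replicate numbers taken from the labels. The authors aligned reads with HISAT2 2.2.1 to GRCm38, obtained reads per gene from featureCounts and deposited these as raw counts. TPM values were deposited by the authors beside them. The annotation release and strand setting are not given in the sources used here. Genes absent from a file were taken as 0 counts. Of 23231 genes, 23155 were matched to a symbol in GENCODE M21, which also gave positions in GRCm38.

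Counts were tested with edgeR 4.0.16 in R 4.3.3 (TMM normalization, filterByExpr with a minimum count of 10 and a minimum total of 15, glmQLFit, glmQLFTest, group alone in the model, Benjamini-Hochberg adjustment over all genes tested). The fold cutoffs follow the study's methods. Exact permutation tests were two-sided over the 6 libraries. Pooled folds and their exact intervals used counts scaled by effective library size and cover counting error only, as do floors of 3 counts. The edgeR script was tested on simulated data.

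The genes and the lists were chosen with earlier results of these data known. Beside the 10 genes and *Myog*, genes were named by rule: all 8 relatives, the 6 other Z-disc genes with the smallest adjusted p and the 4 uncalled ones with the highest TPM, and every called calcineurin gene with the 4 uncalled ones of highest TPM. *Smpx*, *Mypn*, *Fhl2*, *Nexn*, *Ankrd23*, *Pdlim5*, *Lmcd1* and the cardiac, macrophage, smooth muscle and mesenchymal markers named were singled out after their values were seen.

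Deviations from the group means were correlated between same-numbered libraries of the groups (0.262, 0.214 and 0.290 over 14378 genes, against -0.340 to -0.0508 for the other pairs), so a replicate block was fitted as an alternative. That pairing comes from the data, since the labels do not say that a number marks shared handling. Deviations from a group mean cancel out within the group for each gene. Positive values for same-numbered libraries thus force negative ones elsewhere on average, and the contrast between pairs is partly fixed by the centring. Other alternatives were RLE, upper-quartile and total-count scaling, other filters and cutoffs, the Wald test of DESeq2 1.42.0, limma-trend (limma 3.58.1) on TPM after log2 with a pseudocount of 1 or 0.1, CPM in place of TPM, leaving out each library and, added after seeing the data, an offset for GC content.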

Additional observations from a re-analysis of the deposited data

How the results depend on the processing

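The 7 called Z-disc genes stayed called under every alternative that kept them in the test, and over the 130 combinations of the 8 tested genes with an alternative 129 were on the same side of the cutoffs, the exception being *Myoz1* without dCas9-KRAB-En5 replicate 3. Leaving out each library in turn gave 7 to 8 Z-disc genes called lower. With at least 10 counts required in every library the count was 1, since of the 10 genes only *Actn3* and *Myoz1* were then tested. The largest adjusted p of a called Z-disc gene over the alternatives was 0.00828 (*Actn3*), and that of *Myoz1* ranged from 0.00126 to 0.277. All 8 tested genes were also apart by group in TMM-normalized CPM.

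Over all genes, 890 were called (671 lower, 219 higher). The count was 586 with total counts (516 lower, 70 higher), 2198 without a filter (1194 lower, 1004 higher), 544 where all 6 libraries had to reach 10 counts, 2390 with DESeq2 (1423 lower, 967 higher), 514 with limma on log2(TPM + 1) (482 lower, 32 higher), 1543 with the replicate block (976 lower, 567 higher), and it reached 2449 with the adjusted p cutoff at 0.05. limma on log2(TPM + 0.1) gave 643 lower and 66 higher, and the GC offset 737 lower and 329 higher. Leaving out a library gave 222 (without dCas9-KRAB replicate 1) to 3921 (without dCas9-KRAB-En5 replicate 3). Other Z-disc genes called lower numbered 4 with at least 10 counts in every library and 6 to 14 with a library left out. The relatives numbered 1 to 4 with a library left out (4 without dCas9-KRAB-En5 replicate 3 and 1 without each of the others). The calcineurin count was 0 with total counts, with at least 10 counts in every library and with both limma fits, and 0 to 1 with a library left out (1 without dCas9-KRAB-En5 replicate 3 and 0 without each of the others). Calcineurin genes called higher numbered 0, but 2 without a filter, 2 without dCas9-KRAB-En5 replicate 3 and 1 (*Nfatc1*) with the adjusted p cutoff at 0.05. *Actn1* turned from -0.34 to 0.18 without dCas9-KRAB replicate 2, and ranged from -0.69 to 0.18 with a library left out. The replicate block changed no other calls among the genes named than those of *Fhl2*, *Itgam* and *Smtn*. The median log2 fold change of all genes was 0.08 with TMM and 0.13 with total counts. The cause of these shifts was not tested. A count of 0 in a dCas9-KRAB-En5 library allows up to 3 counts, so the size of the largest decreases is bounded by depth.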
